A study of Rattus norvegicus with 24 samples.

Results

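Citric acid cycle enzymes were followed here in the nucleus accumbens of rats that had taken methamphetamine (METH) or saline. The 9 genes were Cs, Idh3a, Idh3b, Idh3g, Ogdh, Dlst, Sucla2, Suclg1 and Mdh2, found by gene symbol among the 68842 transcript clusters of the array, of which 18439 genes had a cluster naming 1 gene of the annotation. Where a symbol had several clusters, the one used was to be chosen by the highest mean log2 signal over the 24 arrays, but each of the 9 had 1 cluster, so that mean decided nothing. The list itself was put together with earlier group results of the same arrays in view, so the direction its members share is a description and not independent evidence. Idh3a encodes the alpha subunit of NAD-dependent isocitrate dehydrogenase and Idh3b and Idh3g its other subunits.

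The citric acid cycle runs in the mitochondrial matrix, where acetyl groups from pyruvate, fatty acids and amino acids are oxidised to carbon dioxide and their electrons are passed to NADH and FADH2 for the respiratory chain. In neurons most ATP for ion pumping and transmitter release comes from this route, and the cycle intermediate 2-oxoglutarate is also the carbon skeleton of the transmitters glutamate and GABA. Citrate synthase opens the cycle, the isocitrate and 2-oxoglutarate dehydrogenases are its controlled oxidative steps, succinyl-CoA ligase makes ATP or GTP directly, and malate dehydrogenase closes it.

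Male Sprague Dawley rats had pressed a lever for intravenous METH or saline, and presses for METH were later punished with footshocks. Rats that kept taking METH were called shock-resistant (SR, 6 arrays) and rats that cut their intake shock-sensitive (SS, 6 arrays), a division made after the behaviour was seen. Control rats took saline without shocks (CT, 6 arrays), and saline rats yoked to SR (YSR, 3 arrays) or SS partners (YSS, 3 arrays) received shocks whenever the partner did, so that the YSR rats received more of them. Tissue was taken about a month into withdrawal, the day after a second cue test, and each array is 1 rat. The labels of CT, SR and SS samples carry a mark that the yoked samples lack, and its meaning is not given, so whatever it marks cannot be told apart from yoking. SR and SS rats differed in METH intake as well as in response to shocks, and no group took METH without shocks. The values were the deposited log2 signals, on which a difference of 1 is a doubling. In bulk tissue, fewer cells of a type and less RNA per cell cannot be told apart.

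All 11 markers of striatal medium spiny neurons, the principal cells of the accumbens, passed the expression filter, which asked for a CT mean above that of the bioB spike-in (9.45 on the log2 scale) and left 9044 clusters (13.1%). Choroid plexus markers summed to 15.89 in 1 SS array and to at most 7.65 in any CT, SR, YSR or YSS array. Array medians over the tested clusters ran from 11.61 to 11.89. Of the citric acid cycle enzymes 7 passed the filter, and Dlst and Suclg1 lay under it. Against the 95th percentile of each array's own negative control probes, Idh3a, Idh3b, Idh3g, Ogdh, Sucla2 and Mdh2 were above on 24 of 24 arrays, Cs on 16, Suclg1 on 2 and Dlst on 0. Dlst and Suclg1 had to be taken from the same model fitted and adjusted over all 68842 clusters. Their differences are given on the log2 scale only, without folds.

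Shown are the promoters of the 3 members with an adjusted p under 0.05 in SR against CT, for Dlst in the fit over all clusters. They are the stretches where a shared control element would be looked for. Each runs 250 bases before to 50 after the RefSeq start (assembly GRCr8, plus strand, 5′ to 3′): Cs at chr7:1348139-1348438, Ogdh at chr14:85363781-85364080 and Dlst at chr6:110489456-110489755. Capitals mark a match, on the minus strand, to CCGGAAGT, the binding letters of the ETS factor GABPA, known for its sites at mitochondrial genes.
Cs: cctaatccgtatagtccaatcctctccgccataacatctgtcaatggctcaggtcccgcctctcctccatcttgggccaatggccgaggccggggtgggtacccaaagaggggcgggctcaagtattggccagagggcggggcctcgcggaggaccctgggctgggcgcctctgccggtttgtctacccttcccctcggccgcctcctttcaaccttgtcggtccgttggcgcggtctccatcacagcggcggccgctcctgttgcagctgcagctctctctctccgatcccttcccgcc
Ogdh: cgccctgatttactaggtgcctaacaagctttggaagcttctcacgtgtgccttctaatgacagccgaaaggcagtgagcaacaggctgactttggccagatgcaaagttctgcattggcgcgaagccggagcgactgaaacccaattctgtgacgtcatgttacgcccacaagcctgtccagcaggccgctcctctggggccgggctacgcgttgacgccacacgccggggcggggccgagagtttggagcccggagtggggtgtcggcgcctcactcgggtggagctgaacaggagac
Dlst: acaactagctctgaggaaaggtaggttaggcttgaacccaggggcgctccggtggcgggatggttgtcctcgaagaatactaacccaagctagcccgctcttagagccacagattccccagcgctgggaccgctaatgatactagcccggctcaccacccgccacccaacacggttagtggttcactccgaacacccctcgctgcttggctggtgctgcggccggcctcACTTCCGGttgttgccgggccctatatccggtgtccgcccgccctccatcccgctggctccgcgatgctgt
Of the 9 genes 8 had an entry in the promoter table. Both strands were searched for 4 motifs of factors known for mitochondrial genes, none of which overlapped another. CCGGAAGT was in the Dlst and Mdh2 promoters and in 3.81% of all 33469 promoters. AAGATGGCG (YY1) was in that of Idh3g and in 1.73% of all. CGCATGCG (the core of the NRF1 motif) and TCAAGGTCA (ERR) were in none of the 8, against 1.66% and 0.433% of all promoters. No match of the 4 was in the Cs or Ogdh window. The GC content of the 8 was 50.3 to 65%, against a median of 51.67% over all promoters.

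The comparison of SR with CT asked which of these enzymes differ between rats that took METH despite punishment and rats that never received it. Cs and Ogdh were higher in SR at an adjusted p under 0.05, by 1.39-fold and 1.25-fold. For Cs, 3 of 6 CT and 5 of 6 SR arrays were above their own negative control percentile, so its fold rests in part on signals within that range. Dlst was higher by 0.31 on the log2 scale, at a signal within the range of the negative controls. The 6 others had positive differences of 0.05 to 0.27 and did not pass. Thus 2 of 7 tested members were called, both higher, where 1.74% of all tested clusters were called higher and 1.99% in either direction. In a fit of 1 tested cluster per named gene, adjusted among themselves, 391 of 3631 clusters were called higher, a larger share than the 1.74%. At an unadjusted p under 0.05, 5 of the 7 were above CT and 0 below, against 15.9% and 5.38% of all tested clusters, and both members under the filter were above it too, against 5.72% of all clusters. The 5 became 3 without CT replicate 3, CT replicate 6, SR replicate 3 or SR replicate 5. The median difference of the 7 was 0.16, against 0.03 over all tested clusters and 0.11 with 1 cluster per gene. No member reached the 1.7-fold change that the study used as its criterion, which 0.973% of tested clusters passed with an unadjusted p under 0.05.

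Ogdh, the decarboxylating E1 component of the 2-oxoglutarate dehydrogenase complex, had log2 signals of 12.09, 12.17 and 12.25 (lowest, median, highest) in CT, and of 12.42, 12.51 and 12.53 in SR. All 6 SR rats were above all 6 CT rats, a separation seen upward in 1.69% of tested clusters. The difference was 0.33 (95% interval 0.20 to 0.45, n = 6 and 6, limma with Benjamini-Hochberg adjustment over 9044 clusters, adjusted p = 0.0171), and it ranked 15 of 9044 by p. Without SR replicate 3 the adjusted p was 0.0517, and in a fit of the CT and SR arrays alone it was 0.145, with the same difference.

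Dlst encodes the E2 succinyltransferase, the core on which that same complex is built. Its log2 signals were 8.37, 8.45 and 8.58 in CT and 8.63, 8.78 and 8.90 in SR. The groups did not overlap, as in 0.553% of all clusters upward, although the closest rats, CT replicate 4 and SR replicate 1, lay 0.052 apart. The difference was 0.31 (95% interval 0.17 to 0.45; limma over all clusters, adjusted p = 0.0473), where 0.163% of all clusters were called higher. Leaving out 1 array at a time gave adjusted p-values of 0.0233 to 0.118. The call was lost without CT replicates 1, 2, 3, 5 or 6, SR replicates 3, 4, 5 or 6, any SS array, YSR replicates 1 or 2, or YSS replicate 2. It was also lost with equal array medians (limma adjusted p = 0.125), quantile normalization (0.0884) and trend and robust moderation (0.0528). In a fit of CT and SR alone the adjusted p was 0.216.

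Cs encodes citrate synthase, which joins acetyl-CoA to oxaloacetate. Its log2 signals were 9.72, 10.15 and 10.22 in CT and 10.13, 10.56 and 10.78 in SR. SR replicate 1 lay among the CT rats and the other 5 SR rats above all of them, while CT replicate 3 was the lowest array. The difference was 0.47 (95% interval 0.26 to 0.69; limma with Benjamini-Hochberg adjustment, adjusted p = 0.0295). The adjusted p was 0.0660, 0.0827, 0.0794, 0.0706 and 0.0776 without CT replicate 2, CT replicate 3, SR replicate 3, SR replicate 5 and SR replicate 6, respectively. It was 0.174 in a fit of CT and SR alone and 0.0502 with equal array medians.

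Mdh2, the mitochondrial malate dehydrogenase, also serves the malate-aspartate shuttle. Its log2 signals were 12.52, 12.83 and 12.94 in CT and 12.92, 13.08 and 13.24 in SR. Of the SR rats 5 were above all CT rats, and SR replicate 2 was just under the highest of them. The difference of 0.27 (1.21-fold, 95% interval 0.08 to 0.46) had an adjusted p of 0.0890 in limma. In the fit of 1 cluster per gene its limma adjusted p was 0.0475, where 400 of 3631 clusters were called.

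Sucla2 and Suclg1 encode the ADP-specific beta and the shared alpha subunit of succinyl-CoA ligase. Sucla2 had log2 signals of 10.41, 10.59 and 10.73 in CT and 10.51, 10.75 and 10.87 in SR, a difference of 0.16 (95% interval 0.02 to 0.30; limma adjusted p = 0.174). SR replicate 1 was its lowest SR array, without which the difference was 0.21 and the adjusted p 0.0398. In that fit 1196 of 9044 tested clusters were called, 848 of them higher. With array weights Sucla2 had a limma adjusted p of 0.0292, where 1250 of 9044 clusters were called, 995 of them higher. Suclg1 ran from 9.13 to 9.42 in CT and from 9.22 to 9.76 in SR, a difference of 0.18 (0.01 to 0.36; limma over all clusters, adjusted p = 0.248). For Suclg1 the 3 SR rats above all CT rats were replicates 3, 5 and 6, and the other 3 lay within the CT range.

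The 3 subunits of isocitrate dehydrogenase stood lowest in this comparison. Idh3b, a regulatory and assembly subunit, ran from 14.01 to 14.43 in CT and from 14.19 to 14.65 in SR, and Idh3g, the allosteric gamma subunit, from 13.39 to 13.73 and from 13.56 to 13.80. Their differences were 0.15 (−0.03 to 0.33; limma adjusted p = 0.336) and 0.13 (0.00 to 0.26; 0.229). Idh3a, the catalytic alpha subunit, differed by 0.05 (−0.17 to 0.27; 0.834), with CT from 14.23 to 14.68 and SR from 14.12 to 14.94. SR held both the lowest and the highest Idh3a array of the 24, replicates 1 and 5, and without SR replicate 5 the difference was −0.04.

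**Figure D1:**
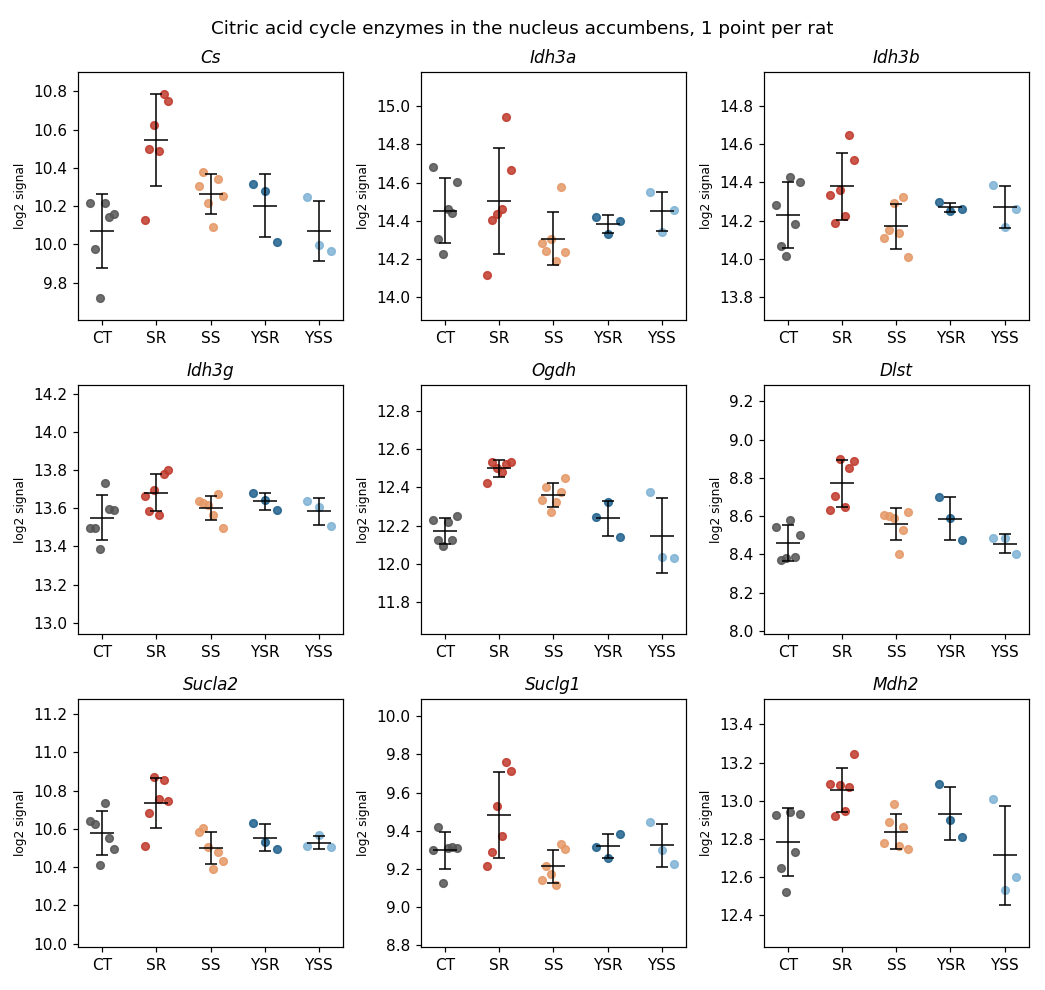
Log2 signal of each of the 9 enzymes (vertical axes, each 1.3 log2 units high) in the 5 groups, 1 point per rat, with bars for the mean and SD (n = 6 in CT, SR and SS, 3 in YSR and YSS). The SR points of Ogdh and Dlst lie above every CT point, whereas those of Idh3a spread from 14.12 to 14.94 across the whole CT range.

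SS was compared with CT to ask the same of rats that also took METH but cut their intake under punishment. The CT arrays are the same as in the comparison above, so the differences of SR and SS from CT are not independent. The limma fit called 0 of the 7 tested members, and 0% of tested clusters. At an unadjusted p under 0.05, 1 member was higher, where 5.97% of tested clusters were (2 members without SR replicate 1). The differences ran from −0.15 for Idh3a to 0.19 for Cs, with a median of 0.05 over the 7 tested members and 0.07 over all tested clusters.

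Ogdh was the member with an unadjusted p under 0.05. Its log2 signals in SS were 12.27, 12.36 and 12.45 (lowest, median, highest). All 6 SS rats were above all 6 CT rats, as in 1.19% of tested clusters, although SS replicate 3 exceeded the highest CT rat by 0.019. The difference was 0.19 (1.14-fold, 95% interval 0.06 to 0.31; limma adjusted p = 0.497). Cs differed by 0.19 too (−0.03 to 0.41), with SS from 10.09 to 10.38 and 4 of 6 SS rats above all CT rats, and by 0.12 without CT replicate 3.

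The signed difference from CT was lower in SS than in SR for each of the 9, Ogdh and Cs included. Dlst differed by 0.10 in SS and 0.31 in SR, and Mdh2 by 0.05 and 0.27. Idh3g differed by 0.05 and 0.13. Sucla2 differed by −0.08 in SS and 0.16 in SR, Suclg1 by −0.08 and 0.18, Idh3b by −0.06 and 0.15, and Idh3a by −0.15 and 0.05. The difference between SR and SS has its own contrast, as follows.

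SR was compared with SS to ask what separates METH takers that resisted punishment from those that did not. All 9 members had a higher mean in SR, by 0.08 to 0.28, and 0 of 7 tested members were called, as were 0% of tested clusters. At an unadjusted p under 0.05, 5 of the 7 and both members under the filter were higher, where 5.76% of tested and 2.45% of all clusters were. The count of 5 became 2 without SR replicate 6. The median difference was 0.21 over the 7, −0.04 over all tested clusters and 0.06 with 1 cluster per gene.

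Sucla2 had the smallest p of the 9. Its log2 signals in SS were 10.39, 10.49 and 10.60, and 5 of 6 SR rats were above all of them. SR replicate 1 lay inside the SS range. The difference was 0.24 (1.18-fold, 95% interval 0.10 to 0.38; limma adjusted p = 0.378).

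Dlst was the member whose groups did not overlap, with SS from 8.40 to 8.62 and SR from 8.63 to 8.90. Upward separation of this kind was seen in 0.154% of all clusters, and here the margin between SS replicate 6 and SR replicate 1 was 0.011. The difference was 0.21 (0.07 to 0.35; limma over all clusters, adjusted p = 0.693).

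Cs differed by 0.28 (0.06 to 0.50), Suclg1 by 0.27 (0.09 to 0.44), Mdh2 by 0.22 (0.03 to 0.41) and Idh3b by 0.21 (0.03 to 0.39), all with limma adjusted p-values of 0.378 to 0.693. Idh3a differed by 0.20 (−0.02 to 0.42), Ogdh by 0.14 (0.01 to 0.27) and Idh3g by 0.08 (−0.05 to 0.21). Ogdh thus had a large difference from CT in SR and a small one from SS, with 5 of 6 SR rats above every SS rat. Without SR replicate 1, Cs and Sucla2 were called in SR against SS, at limma adjusted p-values of 0.0418 and 0.0286. In that fit 298 of 9044 tested clusters were called, 122 of them higher. With array weights Cs and Sucla2 were called too, at 0.0227 and 0.00840, among 751 called clusters, 367 of them higher. Under every other single-array omission 0 members were called.

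**Figure D2:**
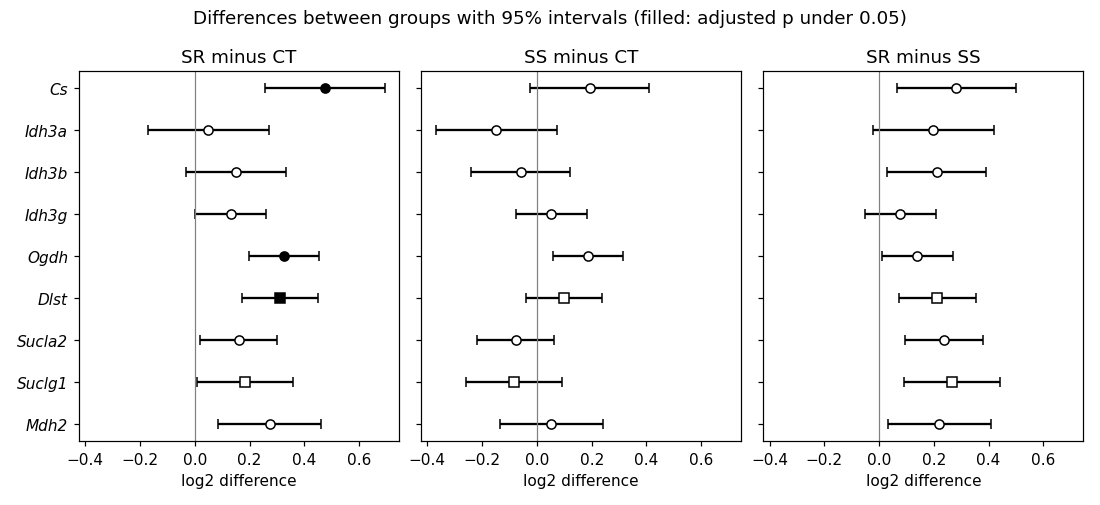
Log2 difference of each enzyme (vertical) for SR minus CT, SS minus CT and SR minus SS (horizontal, with 95% intervals). Circles are clusters tested after the filter and squares the 2 under it, and filled symbols have an adjusted p under 0.05, which held for Cs, Ogdh and Dlst in SR minus CT.

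The yoked rats show the levels after shocks without METH. Ogdh was at 12.25, 12.32 and 12.14 in YSR replicates 1 to 3 and at 12.37, 12.04 and 12.03 in YSS. All 6 SR rats were above the 3 YSR rats (upward separation in 1.28% of tested clusters), whereas YSS replicate 1 lay within the SS range. SR exceeded YSR by 0.26 (0.10 to 0.42; limma adjusted p = 0.699) and SS exceeded YSS by 0.21 (0.05 to 0.37; adjusted p = 0.789), a difference that was 0.32 without YSS replicate 1 and 0.15 without YSS replicate 3.

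Cs was at 10.31, 10.28 and 10.01 in YSR and at 10.25, 9.996 and 9.96 in YSS. SR exceeded YSR by 0.34 (0.08 to 0.61; limma adjusted p = 0.699), with 5 of 6 SR rats above the 3 YSR rats. Dlst was at 8.70, 8.59 and 8.47 in YSR and at 8.48, 8.48 and 8.40 in YSS, so that YSR replicate 1 reached into the SR range.

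Of the 7 tested members 0 were called in SR against YSR or in SS against YSS, as were 0% of tested clusters. At an unadjusted p under 0.05, Cs, Ogdh and Sucla2 were above YSR in SR (3 of 7, against 3.54% of tested clusters), as was Dlst under the filter (1.98% of all clusters), and Ogdh was above YSS in SS (1 of 7, against 3.86%). The count of 3 became 1 without YSR replicate 3, and that of 1 became 0 without YSS replicate 2 or 3 and 2 without YSS replicate 1. Differences of the 9 were 0.04 to 0.34 for SR minus YSR and −0.14 to 0.21 for SS minus YSS. The difference between these differences was 0.00 to 0.27 and above 0 for each of the 9, with 0 called (0% of tested clusters). The smallest p was 0.0782, for Suclg1 (0.27, 95% interval −0.03 to 0.57; limma adjusted p above 0.99).

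Against CT, the differences were −0.07 to 0.15 in YSR and −0.07 to 0.04 in YSS, and YSR minus YSS ran from −0.07 to 0.22. In each of these 3 comparisons 0 members and 0% of tested clusters were called by limma. No member had an unadjusted p under 0.05 either, where 2.65% (YSR against CT), 2.19% (YSS against CT) and 0.641% (YSR against YSS) of tested clusters were higher at that p. Without YSS replicate 1, 2 members had such a p in YSR against YSS. The highest of the YSR minus YSS differences was that of Mdh2, at 12.81 to 13.09 in YSR and 12.53 to 13.01 in YSS (95% interval −0.05 to 0.49). With 3 rats a group these intervals are wide, and they hold for Ogdh values from −0.18 to 0.13 in YSS against CT.

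A test over all 5 groups at once called 0 members, with 0.0111% of tested clusters called. Ogdh had the smallest adjusted p there (limma F test, 0.0801), followed by Cs (0.185).

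The 9 enzymes moved together from array to array to unequal degrees. Over the 24 arrays, Pearson's r between 2 members was 0.22 to 0.90 over the 36 pairs, with a median of 0.65. Cs and Dlst were the closest pair. Idh3a and Ogdh were the most distant, and Idh3a went more with Idh3b (0.76) and Suclg1 (0.74). Each member centred on its own mean, all 9 were above it in SR replicates 3, 5 and 6 and 0 of 9 in CT replicate 3 and YSS replicate 2. The mean deviation was highest in SR replicate 5, at 0.33, and SR replicate 1 was at −0.01, within the range of CT, SS and yoked rats.

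This mean deviation ran against the level of the negative control probes on the same array, taken as their 95th percentile. That level was 9.63 in SR replicate 5, 9.64 in SR replicate 6 and 9.77 in YSS replicate 1, and it reached 10.32 elsewhere. Pearson's r with the members' mean was −0.73 (Spearman's rho −0.59) over 24 arrays, −0.49 without SR replicates 5 and 6, and −0.78 for deviations from group means. By member, r was −0.81 for Idh3a, −0.77 for Suclg1, −0.64 for Cs, −0.49 for Ogdh and −0.33 for Idh3g. Among all tested clusters 14% had an r below −0.5, as did 7 of the 9 members, and the median was 0.05. The median signal of all clusters on the array went with the members' mean to a like degree, at r = −0.76 (rho −0.65) over 24 arrays, −0.69 without CT replicates 2 and 3, and −0.71 for deviations from group means. It was 4.87 in SR replicate 5 and 5.22 in CT replicate 3, the arrays with the highest and the lowest mean deviation. Points share the array, its RNA and its scan, and no fit with this median as a covariate was made.

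With the negative control level as a covariate, a choice made after seeing the data, Ogdh was at 0.28 (limma adjusted p = 0.0240) and Cs at 0.36 (0.0452) in SR minus CT, and Dlst was at 0.26 (0.121). Idh3a was at −0.08. In SR minus SS the differences with the covariate were 0.00 for Idh3a, 0.11 for Cs, 0.07 for Ogdh and 0.20 for Sucla2, and Sucla2 alone of the 9 had an unadjusted p under 0.05. In SS minus CT, Ogdh was at 0.21 (limma adjusted p = 0.125) and Cs at 0.25 (0.205). Thus the SR minus SS differences of all 9 were smaller with the covariate than without it, and that of Ogdh from CT stayed within 0.05 of its first value in both groups of takers.

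**Figure D3:**
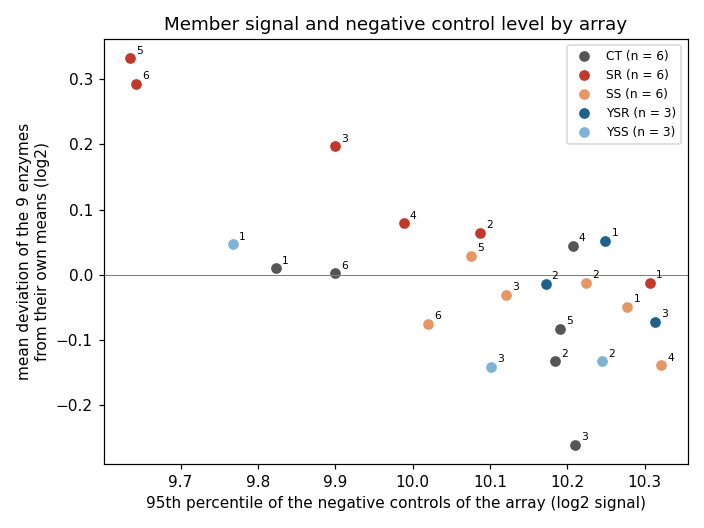
Mean deviation of the 9 enzymes from their own means (vertical, log2) against the 95th percentile of the negative controls (horizontal, log2 signal), 1 point per array with its replicate number, coloured by group. SR replicates 5 and 6 stand at 9.63 and 9.64 with mean deviations of 0.33 and 0.29, and CT replicate 3 at 10.21 with −0.26.

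Markers of other cells were read beside these results. At an unadjusted p under 0.05, 15.9% of tested clusters were higher and 5.38% lower in SR than in CT. Of the 11 medium spiny neuron markers 0 had such a p. Of the 7 general neuron markers 2 were higher at it, Tubb3 at 0.29 and Eno2, the neuronal enolase of glycolysis, at 0.45 (limma adjusted p = 0.0381). Of the 5 tested oligodendrocyte markers 3 were higher at an unadjusted p under 0.05 (15.9% of tested clusters). The summed log2 level of the 6 oligodendrocyte markers with a cluster was 15.87 to 16.29 in CT, 16.08 to 16.69 in SR, 16.18 to 16.65 in SS, 15.92 to 16.19 in YSR and 15.78 to 16.11 in YSS. It was thus highest in SR and SS alike. In SS against YSS 4 of the 5 tested were higher at an unadjusted p under 0.05 (3.86% of tested clusters), and in SR against YSR 2 were (3.54%). The 6 markers of cortical glutamatergic neurons, of which 2 passed the filter, had a median difference of −0.71 in SS minus CT, −0.16 in SR minus CT and 0.48 in SR minus SS. All 6 were lower in SS than in CT and in SR, with SS minus CT from −0.22 to −1.79 and SR minus SS from 0.18 to 1.10, and 4 of them were above the negative controls on 0 arrays. Their summed log2 level was 13.81 to 14.94 in CT, 13.51 to 14.64 in SR and 12.83 to 14.49 in SS. The endothelial markers were all under the filter, and choroid plexus markers summed to at most 7.45 in any SR or CT array. Blood markers summed to 18.49 to 19.40 in CT, 17.86 to 19.13 in SR and 18.11 to 18.67 in YSS. All 5 with a cluster had lower means in SR, SS, YSR and YSS than in CT. Of the 3 tested, 1 was lower in SR against CT at an unadjusted p under 0.05 (5.38% of tested clusters). In YSS minus CT those 3 differed by −1.58 to −0.65. In SR against CT, 0 of the 3 tested astrocyte markers and 0 of the 3 tested microglial markers had an unadjusted p under 0.05. Their differences ran from 0.07 to 0.20 and from −0.27 to 0.13. The part of these cells in the enzyme differences was not tested.

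Genes around the 9 enzymes came from lists of 41 further genes of the cycle and its supply, of which 23 passed the filter. In SR against CT limma called 0 of the 23, 7 lay above and 0 below CT at an unadjusted p under 0.05 (15.9% and 5.38% of tested clusters), and their median difference was 0.17. In SR against SS, 6 were higher at that p (5.76% of tested clusters), and in SS against CT, 1 was (5.97%).

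Among the listed further cycle enzymes, 2 of the 4 tested were higher at an unadjusted p under 0.05 in SR against CT (15.9% of tested clusters). Sdha, the flavoprotein of succinate dehydrogenase, differed by 0.32 (0.14 to 0.50; limma adjusted p = 0.0542). Sdhc, a membrane anchor of succinate dehydrogenase, differed by 0.19 (0.04 to 0.35; limma adjusted p = 0.140). Sdhd, the other anchor, and Sdhb, the iron-sulphur subunit, were under the filter at 0.21 and 0.13. In SS against CT, Sdha was at 0.060.

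At the entry of pyruvate, 3 of 8 tested genes were higher at that p (15.9% of tested clusters). Pdk2, a kinase that inactivates pyruvate dehydrogenase, differed by 0.26 (limma adjusted p = 0.0850) in SR and by 0.22 (adjusted p = 0.575) in SS. Dlat, the E2 core of pyruvate dehydrogenase, differed by 0.22 and Pdhb, its E1 beta subunit, by 0.17 in SR. Pdhx, the binding protein of that complex, was under the filter at 0.19.

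Of the genes that refill or drain the cycle, 2 of 10 tested were higher at that p, near the 15.9% of all tested clusters. Got2, the mitochondrial aspartate aminotransferase, differed by 0.40 (0.17 to 0.64; limma adjusted p = 0.0572) and Got1, its cytosolic partner in the malate-aspartate shuttle, by 0.28 (0.0795). Me2 and Pc, which link malate and pyruvate to the cycle, were under the filter at 0.32 and 0.28. For Got2 the SR minus SS difference was 0.38 and the SS minus CT difference 0.02.

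The related cytosolic or paralogous enzymes had 1 tested gene, Idh1, at 0.04 in SR against CT. Ogdhl, an Ogdh-like protein, Aco1, the cytosolic aconitase, and Dhtkd1, an Ogdh relative of lysine breakdown, were under the filter at 0.20, 0.23 and 0.15.

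**Figure D4:**
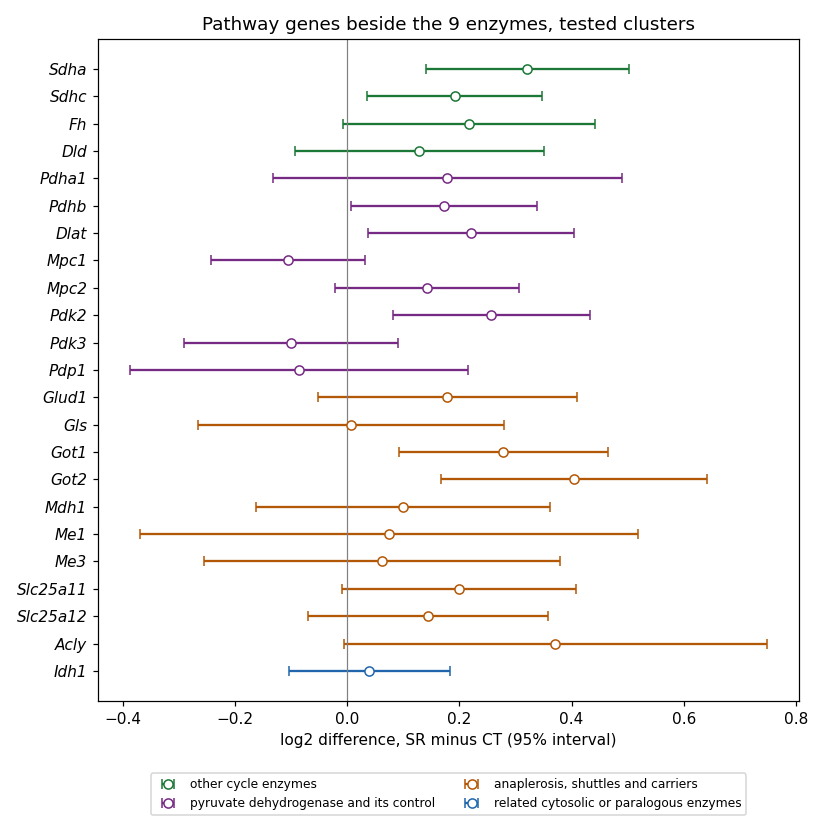
Log2 difference, SR minus CT, with 95% intervals (horizontal) for the 23 tested genes around the 9 enzymes (vertical), coloured by list. The highest is Got2 at 0.40, and 20 of the 23 differences are above 0, with none at an adjusted p under 0.05.

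Of 16 mitochondrial genes outside the cycle, such as carriers and outer membrane proteins, 14 were tested in SR against CT and 0 called. At an unadjusted p under 0.05, 10 were higher (15.9% of tested clusters). The median difference of the 14 was 0.20, against 0.03 over all tested clusters and 0.11 with 1 cluster per gene. Vdac1, the pore of the outer membrane, differed by 0.30 (limma adjusted p = 0.0572), Slc25a4, an ADP/ATP carrier, by 0.21 and Tomm40, the protein import pore, by 0.33. Phb2, a prohibitin of the inner membrane, was under the filter at 0.25. The median of the 7 tested enzymes, 0.16, was thus not above that of these genes.

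The 5 genes closest to the mean of the 9 enzymes over the 24 arrays, of 3681 compared, were Ociad1 (Pearson's r 0.97), Vdac1 (0.96), Got2 (0.96), Rtn3 (0.95) and Atp6v1b2 (0.95). Ociad1, a mitochondrial protein, had group means of 14.16 in SR, 13.86 in SS and 13.78 in CT. It was picked for its likeness to the members' mean on these same arrays. The order of its group means therefore follows in part from that choice and is not independent evidence.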

How the data were processed

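RNA of the nucleus accumbens was hybridised to Affymetrix Rat Transcriptome Array 1.0 chips, 1 per rat. The authors deposited log2 signals per transcript cluster, made with Affymetrix Expression Console per the labels. How background was corrected, arrays were normalized and probes summarised, and which build was used, was left unstated in the sources read here, and the number of arrays limits the precision. The table also held group averages, SDs, fold changes and p-values of the authors' own comparisons, which were not used. Columns were matched to samples by the sample identifier in the column name, and groups came from the sample titles.

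From the log2 signals, 1 limma fit (version 3.58.1, R 4.3.3) of 5 groups over 24 arrays gave 8 pairwise contrasts, 1 difference of differences and the F test, two-sided, with Benjamini-Hochberg adjustment over the 9044 clusters whose CT mean exceeded bioB. Calls needed an adjusted p under 0.05. Genes under the filter were fitted and adjusted over all 68842 clusters instead. The labels do not say that arrays are separate litters or cohorts, so p-values measure the spread between these rats. The members and gene lists were chosen with earlier results of these data known. Named were the 9 members, up to 4 genes per pathway list by p in SR against CT, and the 5 genes correlating best with the members' mean. No fold was given for a gene above the negative controls on 0 arrays of a compared group. On simulated data for SR against CT with 9044 clusters, 39 of 100 changes of 1.3-fold and 85 of 100 of 1.7-fold were recovered, with 4 unchanged clusters called. Its noise was drawn independently for each cluster, whereas clusters on the real arrays vary together. Recovery in the real data can therefore differ. In all 37 other settings were tried. 1 further gene is not reported here.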

Additional observations from a re-analysis of the deposited data

Results flagged for a closer look

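In SS replicate 5 the log2 signal of Idh3a, the catalytic subunit of NAD-dependent isocitrate dehydrogenase, was 14.58, and the next of the 6 SS rats was at 14.30. The gap was 0.711 of the range of the group, above Dixon's 95% critical value. It was 1 of 27 such tests (9 enzymes in the 3 groups of 6), and chance gives about 1 in 20. The other 8 enzymes gave no such array in CT, SR or SS.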

How the results depend on the processing

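Of 1665 values of single enzymes under the alternatives, 1602 kept direction and side of the threshold, 39 lost a call, 7 gained a call and 17 changed sign. In the main fit only Cs, Ogdh and Dlst in SR against CT had a call to lose, so all 39 losses were theirs. Most of the 1665 values had no call to lose, and the 1602 do not measure how stable the calls were. Sucla2 was called in SR against CT with array weights as well, and Mdh2 with 1 cluster per gene. Enzymes called in SR against CT numbered 2, and 1 with equal array medians, 0 in a fit of the compared groups alone, and 0 to 3 when 1 array was left out. Among these single omissions, the count of 3 was without SR replicate 1, where 1196 of 9044 tested clusters were called. The count of 0 was without SR replicate 3, where 0 of 9044 were. Called enzymes were 0 without SR replicate 5 and CT replicate 3 together, and 0 without SR replicates 5 and 6 together. Both settings were chosen after seeing the data, and both called 0 of 9044 tested clusters, as did the fit of the compared groups alone. In SR against SS they were 2 with array weights (751 tested clusters called) and 0 to 2 when 1 array was left out (2 without SR replicate 1, with 298 called). The F test called 3 with array weights, 1 without moderation, 1 with 1 cluster per gene, 1 with the negative control level as a covariate, and 0 to 2 when 1 array was left out (2 without SR replicate 1, 1 without YSS replicate 1). The shares of all tested clusters that the F test called in those settings are not given here. Its counts of enzymes therefore cannot be read as particular to them. The cause of the shifts between settings was not tested.

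Signs changed for small differences. Idh3a in SR minus CT was −0.083 without SR replicate 5 and CT replicate 3, −0.10 without SR replicates 5 and 6 and −0.075 with the covariate, and it ran from −0.037 (without SR replicate 5) to 0.13 when 1 array was left out. In SS minus CT, Idh3g was −0.010 with equal medians and −0.032 with quantile normalization, and Mdh2 −0.011 and −0.025. In SR minus YSR, Idh3a was −0.029 and Idh3g −0.0096 without SR replicates 5 and 6, and with the covariate Idh3a was −0.13, Idh3b −0.029, Suclg1 −0.010 and Mdh2 −0.018. In SS minus YSS, Idh3g was −0.032 with quantile normalization and −0.012 with the replicate block, and it ran from −0.019 (without YSS replicate 3) to 0.047 when 1 array was left out.

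Replicate numbers were shared by groups, and the labels do not say whether they pair the rats. Of 39 same-numbered pairs 13 correlated above 0.1 (range −0.55 to 0.57). Differently numbered pairs were not compared, so these values cannot decide whether the numbers pair rats. With the replicate block, 2 enzymes were still called in SR against CT, Ogdh at an adjusted p of 0.0438 and Cs at 0.0458, Dlst was at 0.0807, and calls over all tested clusters numbered 75, against 180 without it. With array weights they numbered 1250, with equal medians 63, and in the compared groups alone 0. Signals of Dlst on all arrays and Suclg1 on most lay within the negative controls, which limits both.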
